A study of Mus musculus with 4 samples.

Results

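The 9 genes described here encode transcription factors of the enteroendocrine lineage, the hormone-secreting cells of the gut epithelium: Neurog3, Neurod1, Insm1, Pax4, Pax6, Isl1, Nkx2-2, Rfx6 and Foxa2. They were taken by name, 9 of the 19938 genes with a level in this dataset, and all 9 were measured. The data were 4 Affymetrix arrays of RNA from crypt cells of the small intestine of adult mice, sorted by the fluorescence of a reporter for Lgr5, a stem cell receptor. Every mouse carried an EGFP and CreERT2 cassette in the Lgr5 gene (Lgr5-EGFP-ires-CreERT2) and Villin-CreERT2, whose villin promoter drives the recombinase in intestinal epithelium, and every mouse had tamoxifen for 2 days. The Zip7 KO mice were Zip7flox/flox, with both copies of the zinc transporter gene Slc39a7 (Zip7) open to deletion. The controls were Zip7flox/+, so 1 of their copies was open to deletion too. Cells called Lgr5-Hi and cells called Lgr5-Med (Lgr5-Mid in the sample titles) were taken from each genotype, 1 array for each of 4 groups. The sources used here do not give the exact age or sex of the mice, or how many animals stand behind an array. The study's title places it in work on ZIP7 in epithelial proliferation and stem cell maintenance.

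Enteroendocrine cells arise from crypt progenitors in which Notch signalling is low and Atoh1 is on. Neurog3, a basic helix-loop-helix factor, is switched on briefly in such progenitors and commits them to the endocrine fate. Neurod1, Insm1 and Pax4 follow early, and Pax6, Isl1, Nkx2-2 and Rfx6 act in the maturing cells, where they help set which hormones are made. Foxa2 is a forkhead factor of the gut endoderm that also acts on hormone genes and is not limited to endocrine cells.

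All levels below are log2 values after robust multi-array averaging (RMA), so a difference of 1 is 2-fold. A level counted as above background where it passed the floor of its array, which was percentile 95 of 1207 chemosensory receptor genes (olfactory, vomeronasal, trace amine) that gut epithelium should not express. The floors lay between 6.10 and 6.25. Probe sets differ in brightness, so each gene is compared with itself across arrays and never with another gene's level. With 1 array per group there was no spread between animals and no difference was tested. The precision of every value is limited by the small number of arrays. As a yardstick, differences of the receptor genes between paired arrays had a standard deviation of 0.16 to 0.18 in the 4 comparisons.

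The sort labels and the RNA disagreed. Under the label Lgr5-Hi, Lgr5 itself was at 7.79 in control and 7.93 in Zip7 KO, and under Lgr5-Med at 10.97 and 11.24. All 12 stem cell markers of a list were lower under the label Lgr5-Hi in both genotypes. The labels are kept as given, and directions between fractions are those of the labels. Slc39a7 differed between Zip7 KO and control by 0.10 under the label Lgr5-Hi and by -0.39 under Lgr5-Med, and the sources used here do not say where its probes lie relative to the deleted part. Genotype also went with sex: Xist was at 11.64 and 11.84 in controls and under the floor in both Zip7 KO arrays, and Eif2s3y, Uty and Kdm5d, which are Y-linked, were under it in the controls only. The epithelial marker Epcam lay within 11.57 to 11.66 on all arrays.

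The first question was how the 9 genes differed between the fractions. In controls 8 of the 9 were higher in the array labelled Lgr5-Hi, and in Zip7 KO the same 8 were higher, with Foxa2 the exception both times. Neurod1 and Rfx6 stood furthest apart, by the values given below. The count at least 2-fold higher was 4 of 9 in controls (Neurod1, Rfx6, Insm1 and Isl1), against 0.669% of the 12248 genes above the floor on either array. In Zip7 KO it was 3 of 9 (Neurod1, Rfx6 and Pax6), against 1.87% of 12114 genes. At 1.5-fold the counts were 8 of 9 in controls, against 2.3% of all genes, and 7 of 9 in Zip7 KO, against 5.9%. Of all genes 43.3% and 49.3% were higher by any size. The median difference of the 9 was 0.95 in controls and 0.68 in Zip7 KO, where all genes had medians of -0.04 and nearly 0. In such mixed cell populations more cells of a type and more RNA per cell cannot be told apart.

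**Figure D1:**
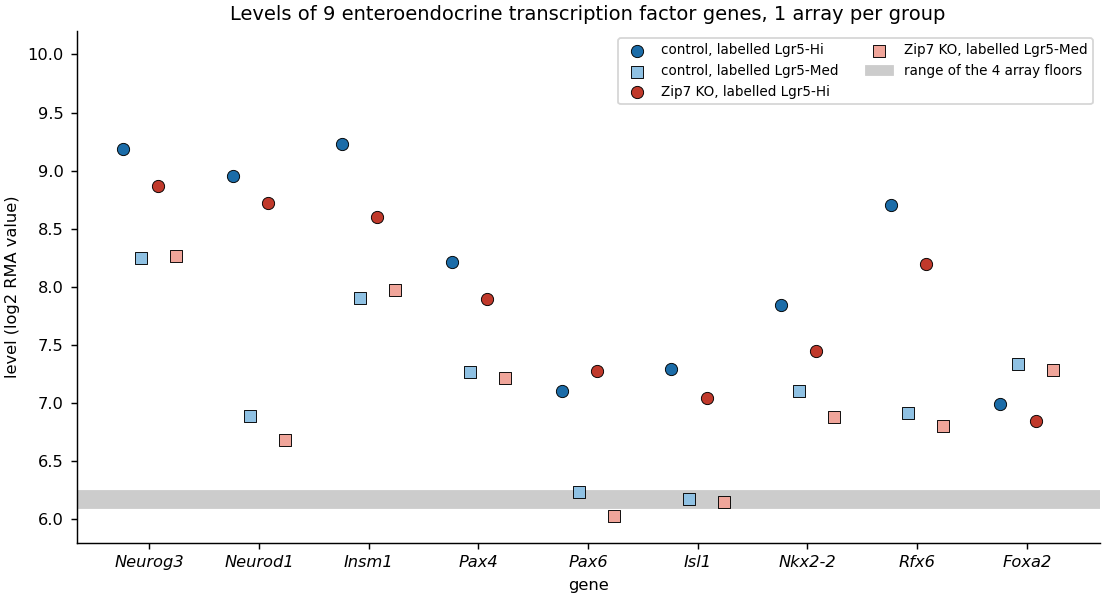
Level of each of the 9 genes (log2 RMA value, vertical axis) on the 4 arrays, with circles for the label Lgr5-Hi, squares for Lgr5-Med, blue for control and red for Zip7 KO; the grey band spans the floors of the 4 arrays, 6.10 to 6.25. For 8 genes the circle of each colour lies above the square of that colour, and for Foxa2 below it. The squares of Pax6 and Isl1 lie at the floor, and heights are not comparable between genes.

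Neurog3, the factor that starts the lineage, had a level of 9.19 (control, Lgr5-Hi), 8.25 (control, Lgr5-Med), 8.87 (Zip7 KO, Lgr5-Hi) and 8.26 (Zip7 KO, Lgr5-Med). The 2 arrays labelled Lgr5-Med were nearly level. The fraction difference was 0.94 (1.92-fold) in controls and 0.61 (1.52-fold) in Zip7 KO. Pax4, a paired homeodomain factor of early endocrine progenitors, ran close to it. In the same array order it was at 8.22, 7.27, 7.90 and 7.21, a fraction difference of 0.95 (1.93-fold) in controls and 0.68 (1.60-fold) in Zip7 KO.

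Neurod1, a helix-loop-helix factor that Neurog3 activates, had the widest range of the 9. Its levels were 8.95 and 6.89 in the control arrays labelled Lgr5-Hi and Lgr5-Med, and 8.72 and 6.68 in Zip7 KO, in the same order. The fractions stood 2.06 apart (4.18-fold) in controls and 2.04 apart (4.11-fold) in Zip7 KO. In each genotype 16 genes of all those compared had a larger difference in that direction. Insm1, a zinc finger repressor of alternative fates in endocrine progenitors, had levels of 9.23 and 7.90 in controls and of 8.60 and 7.97 in Zip7 KO, with the label Lgr5-Hi first. Its fraction difference of 1.33 (2.51-fold) in controls was 0.63 (1.55-fold) in Zip7 KO. That narrowing came from the arrays labelled Lgr5-Hi, where its 2 levels were 0.63 apart, while under Lgr5-Med they were 0.07 apart.

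Among the factors of maturing cells, Rfx6, a winged-helix factor needed for several hormone lineages, had levels of 8.70 and 6.92 in controls, again Lgr5-Hi first, and of 8.20 and 6.80 in Zip7 KO. These are fraction differences of 1.78 (3.44-fold) and 1.39 (2.63-fold), the second widest of the 9 in each genotype. Nkx2-2, a homeodomain factor that acts on the choice among hormone fates, was at 7.85 and 7.10 in controls and 7.45 and 6.88 in Zip7 KO. Its differences of 0.74 (1.67-fold) and 0.57 (1.49-fold) were the smallest among the 8 genes that were higher.

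Pax6 and Isl1 were near background in the arrays labelled Lgr5-Med. Pax6, a paired homeodomain factor for glucagon and other hormone genes, was at 7.10 and 6.24 in controls and at 7.28 and 6.03 in Zip7 KO. The value of 6.03 was below that array's floor, so the fraction difference was 0.86 (1.82-fold) in controls and at least 1.12 (2.17-fold) in Zip7 KO. Isl1, a LIM homeodomain factor of several hormone cell types, was at 7.29 and 6.18 in controls, 7.05 in Zip7 KO cells labelled Lgr5-Hi and 6.15, again below the floor, in those labelled Lgr5-Med. The differences were 1.11 (2.16-fold) in controls and at least 0.89 (1.85-fold) in Zip7 KO. On the Zip7 KO array labelled Lgr5-Med 7 of the 9 genes were above the floor, and on each other array 9 were.

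Foxa2 went the other way. It was at 6.99 and 7.34 in controls and at 6.85 and 7.29 in Zip7 KO, lower under the label Lgr5-Hi in each genotype. The differences of -0.34 and -0.44 lay within the middle 95% of all genes, which ran from -0.63 to 0.56 in controls and from -0.66 to 0.87 in Zip7 KO. The related endodermal factors Foxa1 and Foxa3 differed by -0.14 and -0.14 in controls and by 0.08 and -0.25 in Zip7 KO. Of the other 8 genes, all lay above that middle range in controls, and in Zip7 KO Neurod1, Rfx6, Pax6 and Isl1 did.

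**Figure D2:**
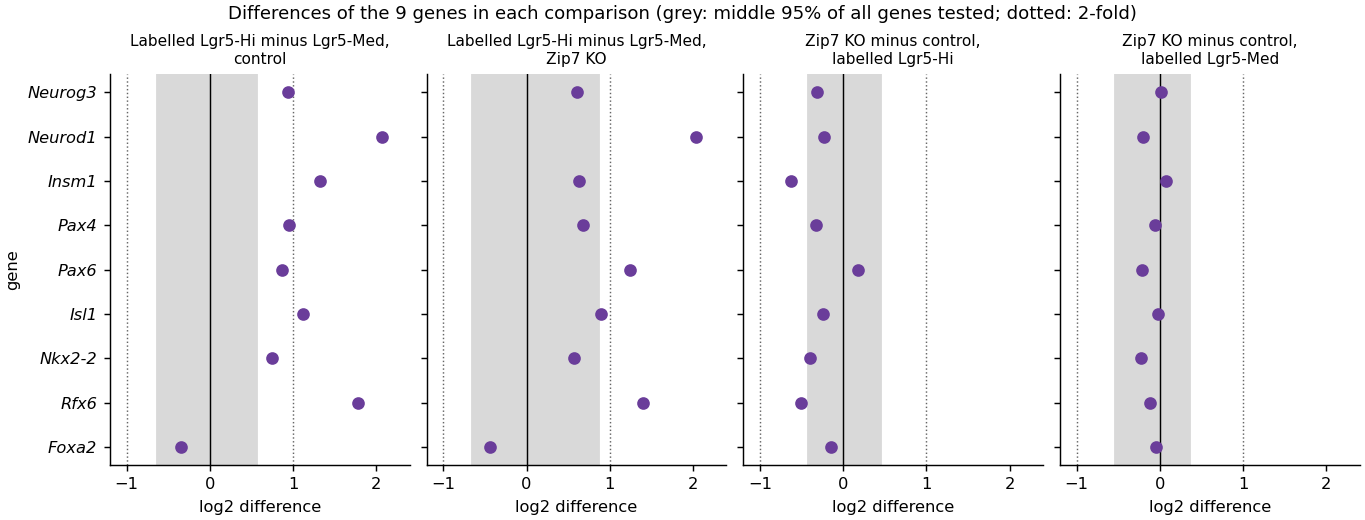
Log2 difference (horizontal axis) of each of the 9 genes in the 4 comparisons; grey marks the middle 95% of all genes above the floor, dotted lines 2-fold, and there is 1 array on each side of every comparison. In the 2 fraction panels 8 genes lie right of 0 and Foxa2 left of it, and in the genotype panels no gene reaches 2-fold; Pax6 and Isl1 are drawn at their measured values where they were below the floor.

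The order of the fraction differences was much the same in both genotypes. Across the 9 genes the differences in controls and in Zip7 KO, which share no array, had a Pearson correlation of 0.91 and a Spearman correlation of 0.78, and 0.81 and 0.69 over the 8 genes without Foxa2. With Pax6 and Isl1 set to the floor where they were below it, the Pearson correlations were 0.93 and 0.85. These are descriptions across genes, which are not independent replicates. Neurod1 and Rfx6 led in both, and Nkx2-2 had the lowest difference of the 8 in both. Insm1 and Pax6 changed places, Insm1 being the wider in controls and Pax6 in Zip7 KO.

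The promoters RefSeq lists for the 9 genes (GRCm38.p6) were searched for motifs of helix-loop-helix, forkhead, NK2 class and RFX factors. Sites of PAX4, PAX6, ISL1 and INSM1 were not searched for. The table held windows for 7 of the 9 genes, 10 windows in all since Pax6 has 2 listed start sites and Foxa2 has 3, and each was read over the 250 bases before the start. Insm1 and Pax4 were not among them, and the counts below include the 3 windows of Foxa2, which went the other way between fractions. Shown here are Neurog3 and Neurod1, the first pair of factors in the cascade, Rfx6, with the second widest fraction difference, and Nkx2-2, the gene with most matches. Capitals mark each E-box, CANNTG, the core site of helix-loop-helix factors such as NEUROG3 and NEUROD1, which reads the same on both strands.
Neurog3, chr10:62132840-62133089, plus strand: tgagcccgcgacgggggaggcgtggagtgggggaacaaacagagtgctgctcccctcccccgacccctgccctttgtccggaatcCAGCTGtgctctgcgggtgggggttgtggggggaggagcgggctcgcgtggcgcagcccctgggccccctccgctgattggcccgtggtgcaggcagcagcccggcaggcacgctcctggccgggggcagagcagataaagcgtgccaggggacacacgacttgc
Neurod1, chr2:79456637-79456886, minus strand: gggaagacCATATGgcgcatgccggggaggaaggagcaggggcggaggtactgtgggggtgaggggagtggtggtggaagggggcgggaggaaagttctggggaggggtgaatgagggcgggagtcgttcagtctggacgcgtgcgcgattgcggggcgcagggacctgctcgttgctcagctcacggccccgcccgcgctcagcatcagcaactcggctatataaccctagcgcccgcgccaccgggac
Rfx6, chr10:51685268-51685517, plus strand: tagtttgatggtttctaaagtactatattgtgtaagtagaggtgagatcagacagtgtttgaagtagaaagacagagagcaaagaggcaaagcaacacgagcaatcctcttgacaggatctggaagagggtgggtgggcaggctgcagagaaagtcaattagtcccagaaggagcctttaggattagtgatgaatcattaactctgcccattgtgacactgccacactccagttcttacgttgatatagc
Nkx2-2, chr2:147186403-147186652, minus strand: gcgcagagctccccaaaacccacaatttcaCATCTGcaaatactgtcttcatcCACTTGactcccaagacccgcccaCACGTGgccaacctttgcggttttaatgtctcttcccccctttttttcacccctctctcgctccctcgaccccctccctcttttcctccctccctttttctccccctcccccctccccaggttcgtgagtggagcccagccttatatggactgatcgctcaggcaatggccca

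The Neurog3 window held 1 E-box, CAGCTG, beginning 165 bases before the start, and that of Isl1 also held 1 with these letters. Neurod1 had 1, CATATG, 242 bases before its start. Rfx6 had none in its window. Nkx2-2 had 3, the first being CATCTG at 220 bases, the next CACTTG at 197 bases and the last CACGTG at 173 bases. In all, 6 of the 10 windows held an E-box, against 66.2% of 32851 windows of this length. The form preferred by NEUROD1, CAGATG or its reverse CATCTG, which is itself an E-box, occurred in 1 of the 10, that of Nkx2-2, against 14.4% of all. The NK2 class motif TNAAGTG or CACTTNA was also found only there among the 10, overlapping the second E-box, against 10.1% of all. The X-box half-site GTTGCC or GGCAAC of RFX factors was found in 1 window, upstream of the first start of Pax6, against 10.4%. The forkhead motif TGTTTAC or GTAAACA was in 0 of the 10, against 3.17%. These are matches of letters, and neither a match nor its absence shows what a factor does there.

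The positions of the 9 genes were also read. On the mouse genome 5 of them lie on chromosome 2 (Neurod1, Pax6, Insm1, Nkx2-2 and Foxa2) and 2 on chromosome 10 (Neurog3 and Rfx6). The share of all genes on these chromosomes was not counted. Neurod1 and Pax6 lie far from Nkx2-2 and Foxa2, and Neurog3 far from Rfx6. Insm1, Nkx2-2 and Foxa2 follow in this order on chromosome 2, with 5 other protein-coding genes in between. Those 5 genes, Ralgapa2, Kiz, Xrn2, Nkx2-4 and Pax1, had fraction differences from -0.30 to 0.09 in controls and from -0.58 to 0.24 in Zip7 KO. Insm1 and Nkx2-2 were above these ranges in both genotypes, whereas Foxa2 at -0.34 was just below the range in controls and inside it in Zip7 KO. Nkx2-4, a homeodomain gene beside Nkx2-2, differed by 0.01 and 0.11.

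**Figure D3:**
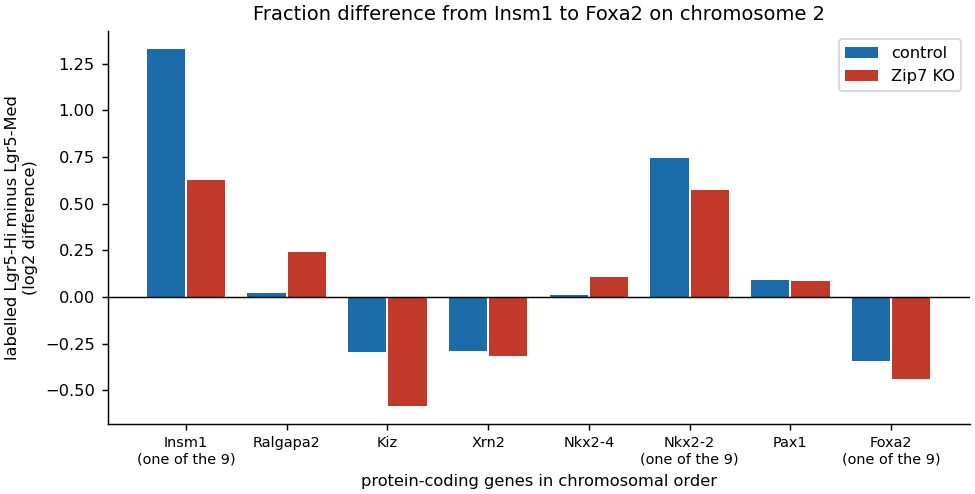
Fraction difference (labelled Lgr5-Hi minus Lgr5-Med, log2, vertical axis) of the 8 protein-coding genes from Insm1 to Foxa2 in chromosomal order, blue for control and red for Zip7 KO, 1 array on each side. Insm1 and Nkx2-2 reach 1.33 and 0.74 in controls, and the 5 other genes between Insm1 and Foxa2 stay between -0.58 and 0.24.

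The genes downstream and upstream of these factors were read from lists. Of the enteroendocrine hormone and granule genes 28 of 28 above the floor were higher under the label Lgr5-Hi in controls, 17 of them at least 2-fold, and in Zip7 KO 29 of 30 were, 18 at least 2-fold. Their medians were 1.58 and 1.39. Of these genes 6 in controls and 8 in Zip7 KO were below the floor on 1 side; set to the floor there, the medians were 1.44 and 0.95, and 16 and 14 were at least 2-fold higher. Somatostatin (Sst) differed by 3.74 and 3.67, the incretin Gip by 3.49 and 3.47 and cholecystokinin (Cck) by 2.98 and 3.48. Neurog3, Pax4 and Neurod1 had smaller fraction differences than these 3 hormones, which were named for having the widest of the list. That order does not hold for the whole list, where other genes lay below all 3 factors in both genotypes. The potassium channel gene Kcnj11 was the lowest of the list at 0.11 and -0.10, and Insl5, Iapp and Cplx2 were below the floor on all 4 arrays.

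Upstream, Atoh1, the factor that opens the secretory lineage, was higher by 1.12 and 1.03. On the Notch side the receptor Notch1 was lower, at -0.97 and -0.88, and so was the repressor Hes1, at -0.61 and -0.68. The Notch ligands Dll1 and Dll4 were higher, Dll1 by 0.27 and 0.20 and Dll4 by 0.45 and 0.50. The list of secretory fate and Notch genes had 7 of 17 members higher in each genotype, with medians of -0.28 and -0.22. It holds the stem cell factor Ascl2, at -1.89 in both. Sox9, Sox4 and Hes6 of this list were lower as well. Sox9 was at -0.92 and -1.11, Sox4 at -0.79 and -0.70 and Hes6 at -0.64 and -0.44. Other transcription factors linked to endocrine cells had lower medians than the 9: 10 of 15 were higher in controls and 9 of 15 in Zip7 KO, with medians of 0.11 and 0.08. The zinc finger factor St18, above the floor on all 4 arrays, was at 0.73 and 0.58. The co-repressor Runx1t1 and the ETS factor Etv1 were below the floor in both arrays labelled Lgr5-Med, so only a bound is known. Runx1t1 was higher by at least 0.43 in controls and 0.44 in Zip7 KO, and Etv1 by at least 0.45 and 0.46.

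Markers of other cells moved between the fractions as well, and their part in the result was not tested. Under the label Lgr5-Hi all 10 goblet cell markers were higher in both genotypes (medians 1.03 and 1.45), as were all 9 Paneth cell markers above the floor (0.62 and 1.15). Of the 8 tuft cell markers above the floor 8 and 7 were higher (0.82 and 0.41). The stem cell markers had medians of -1.29 and -1.58, and their mean level was 8.72 and 8.70 under Lgr5-Hi against 10.27 and 10.42 under Lgr5-Med. Enterocyte markers had medians of -0.01 and 0.34 and general epithelial markers of -0.02 and 0.06. Enteric neurons use some of the same factors. Of 13 neuron and glia markers 8, among them Elavl4, Tubb3, Stmn2 and Chat, were below the floor on all 4 arrays. Of the 5 above it 4 were higher in controls and 5 in Zip7 KO. Snap25, a vesicle fusion gene, differed by 1.03 and 1.04, Ret by 0.65 and 0.54, and the others by no more than 0.32. Lymphocyte and myeloid markers had medians of -0.30 and -0.02. Stromal and endothelial markers had medians of 0.16 and -0.05, with Vim at 2.10 and 1.74 and Col3a1 at 0.33 and -0.05.

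**Figure D4:**
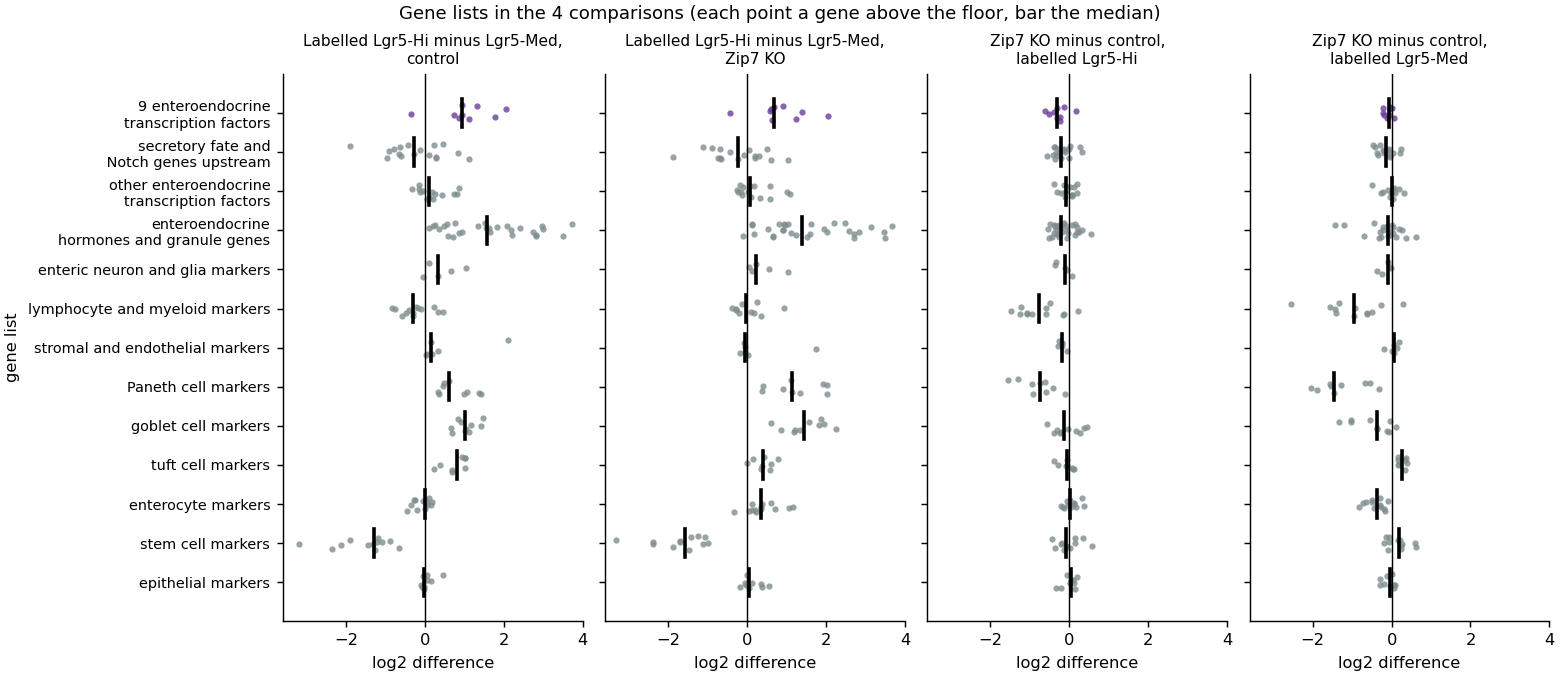
Log2 differences (horizontal axis) of the genes of 13 lists in the 4 comparisons; each point is a gene above the floor on either array, the black bar is the list's median, and the 9 transcription factors are in purple. In the 2 fraction panels the medians of the 9 are 0.95 and 0.68, those of the hormone and granule genes 1.58 and 1.39 and those of the stem cell markers -1.29 and -1.58; in the genotype panels the medians of the 9 are -0.32 and -0.05.

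The genes whose 4 levels ran most like a member's were sought among 510 others with a range of at least 1, by the root mean square distance between profiles centred on their means. For Neurod1 they were Adgrg4 (distance 0.04), Trpa1, Pcsk1, Gpx3 and Scgn (0.10). For Rfx6 they were Slc18a1 (0.07), Rimbp2, Cpe, Amigo2 and Sct (0.14). Insm1 was nearest to Vwa5b2 (0.06), followed by Kcnk16, Galnt5, Vcan and Prnp (0.14). Pax4 had Capg first (0.04), and then Galnt5, Vcan, Prnp and Kcnk16 (0.07), which are the 4 that also followed Vwa5b2 for Insm1. Isl1 was nearest to Creb3l1 (0.03), Rep15, Pde2a, Stxbp5l and Galnt5 (0.06). Pax6 shared none of its 5 with the other members and had Pqlc3 (0.05), Coro2a, Gmppb, Nts and Vstm5 (0.06). Neurog3, Nkx2-2 and Foxa2 had ranges under 1 and were not matched. Of the 25 genes named, 11 were below the floor on at least 1 array: Adgrg4, Trpa1, Gpx3, Scgn, Vcan, Prnp, Capg, Nts, Stxbp5l, Cpe and Amigo2. Their distances and places, and those of Pax6 and Isl1 as members, rest in part on background signal. With 4 arrays many profiles are alike, so these distances only describe the arrays at hand.

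The second question was how the 9 genes differed between Zip7 KO and control cells. None reached 2-fold under either label: 0 of 9 under Lgr5-Hi, where 0.484% of 11988 genes did, and 0 of 9 under Lgr5-Med, where 0.686% of 12243 did. Under the label Lgr5-Hi 8 of 9 were lower in Zip7 KO, against 45% of all genes, and the median was -0.32 against 0.02. Under Lgr5-Med 7 of 9 were lower, against 55.8% of all genes, and the median was -0.05 against -0.03, so these genes sat about where all genes sat.

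Under the label Lgr5-Hi the widest difference was that of Insm1, from 9.23 in control to 8.60 in Zip7 KO, or -0.63 (1.55-fold). It was the only one of the 9 past 1.5-fold, a size that 0.926% of all genes reached in this direction, and 0.74% of all genes had a lower difference. Rfx6 was at -0.50 (1.42-fold) and Nkx2-2 at -0.40 (1.32-fold). Neurog3 and Pax4 were both at -0.32, Isl1 at -0.25, Neurod1 at -0.23 and Foxa2 at -0.15. Pax6 was the one gene higher in Zip7 KO, by 0.18. Insm1 and Rfx6 lay below the middle 95% of all genes, which ran from -0.43 to 0.45, and the other 7 lay within it. The difference of Foxa2 was smaller than the standard deviation of the receptor genes in this comparison, 0.17, and that of Pax6 was about equal to it. The middle 95% of the receptor genes ran from -0.39 to 0.28 here. Only Insm1, Rfx6 and, narrowly, Nkx2-2 lay outside that range.

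Under the label Lgr5-Med all 9 lay within the middle 95% of all genes, -0.54 to 0.36. The differences ran from -0.23 for Nkx2-2 to 0.07 for Insm1, with Neurod1 at -0.20 and Rfx6 at -0.12. Neurog3 was at 0.02, Foxa2 at -0.05 and Pax4 at -0.05. Pax6 and Isl1, below the floor in Zip7 KO, were lower by at least 0.08 and 0.02 when that value was set to the floor. When each array was centred on its median, which shifted the median of all genes in this comparison by -0.11, all 9 were lower, Neurog3 at -0.09 and Insm1 at -0.04 included. That scaling moved the split of all genes from 44.1% higher and 55.8% lower to 22.5% higher and 77.5% lower. In the control fraction comparison it moved the split from 43.3% higher and 56.7% lower to 28.6% and 71.4%, and 8 of the 9 genes were higher there under it too.

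Taken as Lgr5-Hi minus Lgr5-Med, the gap between the genotype differences was below 0 for 8 of 9 genes, with a median of -0.22 against 0.05 over all genes. The share of all genes below 0 was not counted. The gap was lowest for Insm1, at -0.70. Pax6 was the one gene above 0, at 0.39 as measured, or at least 0.25 with its value below the floor set to the floor, which also moved the median, that of Isl1, to -0.23. The gap was -0.39 for Rfx6, -0.34 for Neurog3 and -0.27 for Pax4, and -0.03 for Neurod1. With 1 array per group the gap was not tested. Each gap combines 2 genotype differences, and the receptor genes had a standard deviation of 0.17 in each of them. Most of these gaps are thus small beside that spread.

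Related lists gave these genotype values. The hormone and granule genes had 22 of 30 lower under Lgr5-Hi, with a median of -0.20, and 14 of 22 lower under Lgr5-Med, with a median of -0.10. Chromogranin A (Chga) was at -0.53 and -0.71, whereas Sst was at 0.55 and 0.62, and proglucagon (Gcg) was at -0.38 and -1.43. Atoh1 was at -0.56 and -0.46, and the list that holds it had 13 and 14 of 17 lower, with medians of -0.20 and -0.15. The other endocrine transcription factors had 8 of 15 and 7 of 13 lower, with medians of -0.08 and nearly 0.

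Other cells' markers moved with genotype too, and their part in these values was not tested. Of the Paneth cell markers 9 of 9 above the floor were lower under both labels, with medians of -0.74 and -1.47. Of the lymphocyte and myeloid markers above the floor 11 of 12 were lower under both, with medians of -0.77 and -0.94. Over all 16 such markers measured, those below the floor included, the mean level was 7.36 and 7.55 in controls against 6.78 and 6.76 in Zip7 KO. Goblet cell markers had medians of -0.13 and -0.37 and tuft cell markers of -0.05 and 0.26, with 8 of 8 tuft markers higher under Lgr5-Med. Stem cell markers stood at -0.09 and 0.19, enterocyte markers at 0.02 and -0.37, and epithelial markers at 0.05 and -0.03. Stromal markers had medians of -0.18 and 0.07, and neuron and glia markers of -0.11 and -0.08. The sex of the mice, given above, cannot be told apart from genotype in these arrays.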

How the data were processed

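The authors deposited 1 column of RMA values per array, named RMA per the submitters' processing notes, and these were read as log2 values from their range of 3.08 to 14.6. The sources used here do not state the log base, the software or which arrays were normalised together. Of 35557 probe sets 21789 have 1 gene symbol in the platform annotation, 1621 have several and 12147 are not listed there. A gene's level was its probe set of 1 symbol with the highest mean over the 4 arrays, and each of the 9 members has exactly 1. Their Entrez IDs matched RefSeq symbols in 9 of 9 cases. Differences were taken between single arrays in 4 comparisons over genes above the floor (percentile 95 of 1207 receptor genes) on either array, counted past 2-fold, with no test. The members and 12 other lists were chosen with earlier results of these data known. From each other list the genes with the largest differences were to be named, up to 4 per comparison. The closest profiles (5 per member with a range of at least 1) were named too. Beyond that rule, other genes were named after their values were seen. These were the series checks, the chromosome 2 neighbours, Hes1, Dll1, Dll4, Sox4, Hes6, Foxa1, Foxa3, Kcnj11 and genes below the floor. The second value of a gene that the rule named in 1 comparison was also given after it was seen. Alternatives were median centring, quantile normalisation, a lowess trend on level removed (span 0.3), the mean of a gene's probe sets, floors at percentiles 90 and 99 or none, and 1.5-fold. The counting was tested on simulated data. Python 3.11.15, pandas 2.3.3 and statsmodels 0.14.6 were used.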

Additional observations from a re-analysis of the deposited data

Results flagged for a closer look

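For 3 of the 9 genes the single array of one fraction moved the opposite way to that of the other between genotypes, and this difference was not tested. The share of all genes with such opposite signs was not counted, so 3 of 9 cannot be set against it. Insm1 was at -0.63 (Zip7 KO minus control) under the label Lgr5-Hi and at 0.07 under Lgr5-Med, a difference of -0.70 between them. Neurog3 was at -0.32 and 0.02, a difference of -0.34. Pax6 was at 0.18 and -0.21, a difference of 0.39. Its Zip7 KO value under Lgr5-Med was below the floor, so that this difference is at least 0.25. The opposite signs of Insm1 and Neurog3 rest on values near 0 under Lgr5-Med, which turned negative when arrays were centred on their medians. Those of Pax6 rest on small values too. Its 0.18 was about the standard deviation of the receptor genes, 0.17, and its -0.21 was -0.08 with the floor.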

How the results depend on the processing

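With 1.5-fold in place of 2-fold, 8 of the 9 genes counted as apart between fractions in controls, 7 in Zip7 KO, and 1 (Insm1) between genotypes under the label Lgr5-Hi. Under the other alternatives these counts were 4 to 6, 3, and 0. The 6 came with the trend on level removed. The median differences ranged from 0.86 to 1.02 (fractions, control), 0.68 to 0.70 (fractions, Zip7 KO), -0.36 to -0.32 (genotype, Lgr5-Hi) and -0.16 to -0.04 (genotype, Lgr5-Med), and that of the difference between genotype differences from -0.22 to -0.12. Of 144 recomputed single-gene differences 144 moved by less than the standard deviation of the receptor genes, and 2 turned sign. Each of the 9 genes has exactly 1 probe set, so the mean of a gene's probe sets could not move any of these differences. The floors could not change counts or medians in comparisons with an array labelled Lgr5-Hi, since all 9 genes passed every floor there. With floors at percentile 90 or 99, the genes above the floor in the Zip7 KO array labelled Lgr5-Med numbered 9 or 5, and in the control array with that label 9 or 7. The labels give no replicate numbers, so no replicate block was fitted. A fit of genotype and fraction together over the 4 arrays was not run. Leaving out an array would empty its group. With values below the floor set to the floor, an alternative chosen after seeing the data, the 4 counts and 4 medians of the 9 genes were the same and the median gap was -0.23. Signal close to the floor limits Pax6 and Isl1 under Lgr5-Med.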
